A study of Homo sapiens with 18 samples.

Results

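The FOXO transcription factors and 7 genes of insulin signalling or reported FOXO regulation were followed in HAP1, a human cell line with a nearly haploid genome that was derived from chronic myeloid leukaemia cells. The genes were taken from a fixed list, which was chosen with earlier results of these data known. Matched by symbol to the Ensembl identifiers of the count tables, all 10 of the 10 listed genes were found among 63677 gene identifiers. They were FOXO1, FOXO3 and FOXO4, the receptor and adaptor genes INSR and IRS2, the phosphoinositide 3-kinase inhibitor PIK3IP1, and TSC22D3, BCL6, FBXO32 and KLHL24. Polyadenylated RNA was sequenced from 3 cell lines in 2 media, with 3 libraries in each of the 6 groups, 18 in all. The lines were ATG7KO (knockout of the autophagy enzyme ATG7), RB1CC1KO (knockout of RB1CC1, a scaffold of the complex that starts autophagy) and WT, the line with neither knockout. Cells were either starved for 6 h in EBSS (Earle's balanced salt solution), which supplies salts and glucose but neither amino acids nor serum, or left in full medium with 10% serum. Extracts came from independent biological replicates per the labels. Each genotype is a single line here, so the knockout and any other difference between 2 lines cannot be told apart.

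Insulin and growth factors act through the insulin receptor, its IRS adaptors and phosphoinositide 3-kinase to activate the kinase AKT. AKT phosphorylates FOXO proteins, which are then bound by 14-3-3 proteins and held out of the nucleus, so that FOXO target genes are transcribed mainly when insulin and serum factors are low. FOXO activity is therefore set largely on the protein, and the counts below measure only RNA.

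The fewest reads assigned to genes were 4892072, in ATG7KO EBSS replicate 3, and the most were 26005942, in RB1CC1KO EBSS replicate 2. The other 16 libraries held 11994110 to 19073798. Mitochondrial reads made up 1.41 to 2.36% of gene reads after EBSS and 3.24 to 4.26% in full medium, and the part of this shift in the results was not tested. ATG7 RNA was at 4.51, 3.68 and 3.87 CPM (read counts relative to library size, scaled between libraries by the TMM method) in ATG7KO in full medium, against 14.2, 15.7 and 16.8 CPM in WT (log2 fold change -1.95 ± 0.12). After EBSS the gap was smaller, with 10.98, 10.2 and 9.97 CPM in ATG7KO and 16.03, 17.8 and 14.5 CPM in WT (-0.62 ± 0.12, adjusted p = 0.000149), and ATG7 RNA rose 2.6-fold after EBSS in ATG7KO, a response 1.33 ± 0.17 larger than in WT on the log2 scale (adjusted p = 6.07e-06). RB1CC1 RNA was higher, at 147, 171 and 152 CPM, in the RB1CC1KO libraries in full medium than in WT (94.2, 106 and 115 CPM), so the RNA level does not check that label, and they are named RB1CC1KO-labelled cells. Of 12 haematopoietic markers, 8 were under 1 CPM in every library, GATA1 and HBG1 were at 0, and GATA2 was at 43.3 to 66.6 CPM. Their summed level was 70.8 to 71.0 CPM in ATG7KO, 84.2 to 94.7 CPM in RB1CC1KO-labelled cells and 81.7 to 90.5 CPM in WT after EBSS, and 75.1 to 77.0, 114 to 124 and 109 to 125 CPM in those lines in full medium. Of 6 epithelial markers 2 were under 1 CPM, with sums of 59.6 to 66.7, 85.6 to 96.2 and 116 to 122 CPM after EBSS and 62.5 to 67.0, 71.8 to 81.8 and 102 to 113 CPM in full medium in the same order of lines. The fibroblast and mesenchymal list had DCN and LUM at 0 and 3 of 8 genes under 1 CPM. Its sums, nearly all VIM, were 1244 to 1293, 967 to 1064 and 958 to 973 CPM after EBSS and 797 to 866, 517 to 546 and 560.0 to 593 CPM in full medium. ATG7KO did not overlap WT on any of the 3 lists in either medium, being lower on the first 2 and higher on the third. RB1CC1KO-labelled cells were below WT without overlap on the epithelial list in both media and on the third list in full medium. Otherwise they overlapped WT. The part of these marker shifts in the results below was not tested.

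After EBSS, 8 of the 10 genes were higher in every line: FOXO3, FOXO4, IRS2, INSR, TSC22D3, BCL6, FBXO32 and KLHL24. All 10 genes passed the filter on low counts, which left 15179 genes to test, and calls were made where edgeR's quasi-likelihood F test gave an adjusted p (Benjamini-Hochberg, over all of them) under 0.05. In ATG7KO 8 genes rose, 1 fell and 1 was not called, in RB1CC1KO-labelled cells 8 rose, 1 fell and 1 was not called, and in WT 8 rose and 2 were not called. Starvation moved much of the transcriptome, and 62.9% of all tested genes were called in ATG7KO, 65.1% in RB1CC1KO-labelled cells and 64.5% in WT. Calls in the higher direction made up 32.3% of all tested genes in ATG7KO, 31.9% in RB1CC1KO-labelled cells and 32.4% in WT, and 25.2% of all tested genes were called higher in all 3 lines. Calls in the lower direction made up 30.6, 33.3 and 32.1% in the same lines. The median log2 fold change of the 10 genes, EBSS over full medium, was 1.64 in ATG7KO, 2.01 in RB1CC1KO-labelled cells and 1.80 in WT, and that of all tested genes was -0.01, -0.03 and -0.02 in the same lines. Of the called genes, 51.3% were higher after EBSS in ATG7KO, 48.9% in RB1CC1KO-labelled cells and 50.3% in WT. Upper-quartile scaling, which moved the median log2 fold change of all genes to -0.17 in ATG7KO and WT and to -0.18 in RB1CC1KO-labelled cells, gave 37.2, 37.0 and 37.4% in the same lines. The 10 genes were chosen with earlier results of these data known, so their shares and medians beside those of all genes are descriptions only. Bulk RNA does not separate a change in every cell from a change in the share of cells in a given state.

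**Figure D1:**
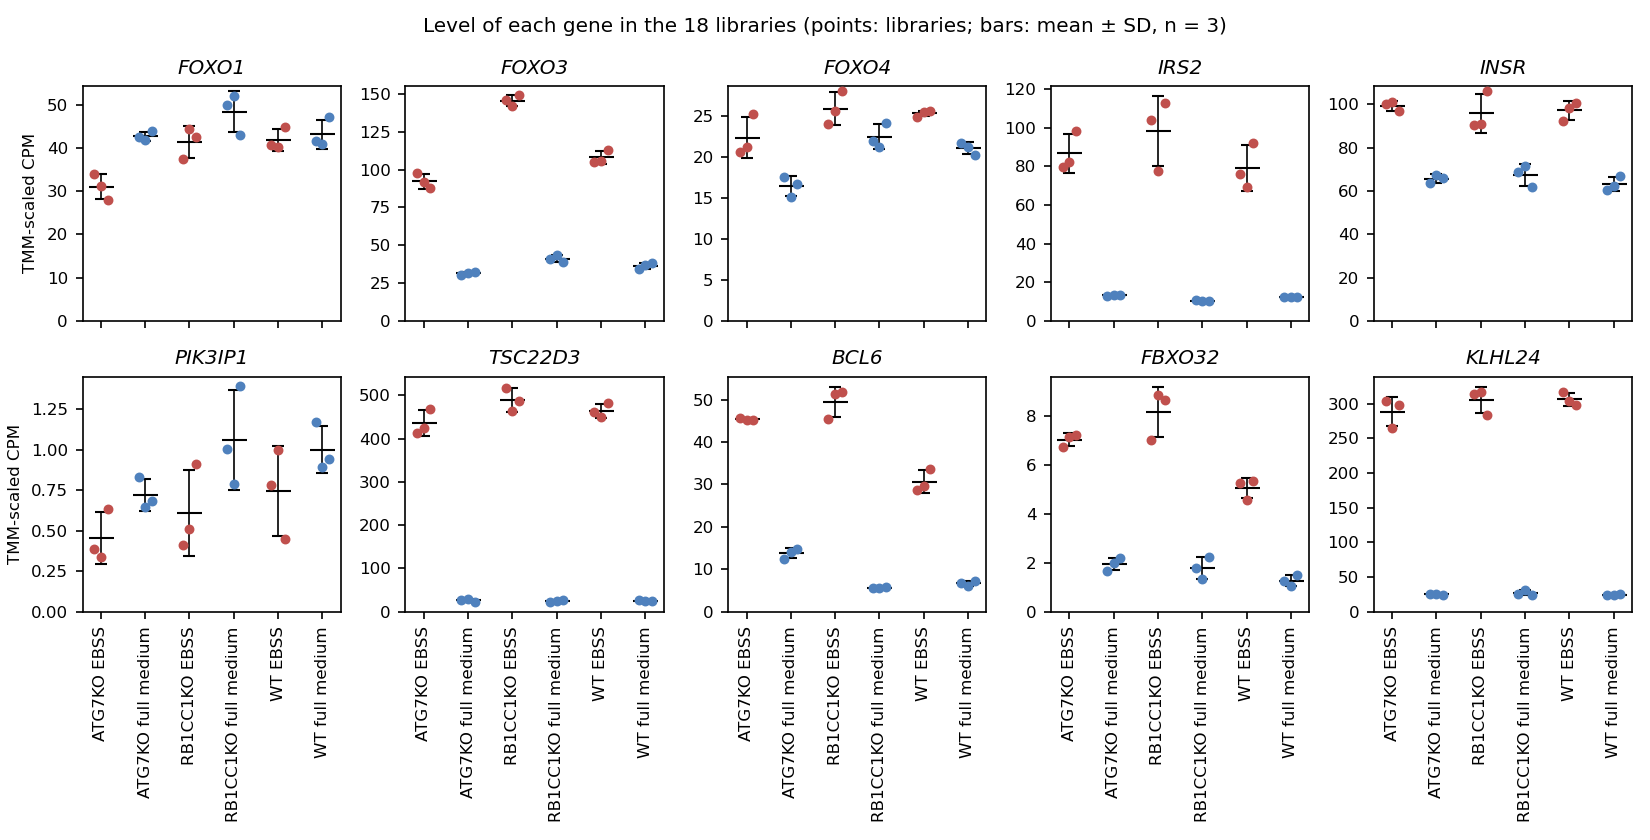
TMM-scaled CPM of each gene in the 18 libraries (points) with the mean and SD of the 3 libraries per group (bars), EBSS in red and full medium in blue. TSC22D3, KLHL24 and IRS2 have the largest fold change between media, FOXO1 is the only FOXO factor not higher after EBSS, and PIK3IP1 stays near or under 1 CPM.

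**Figure D2:**
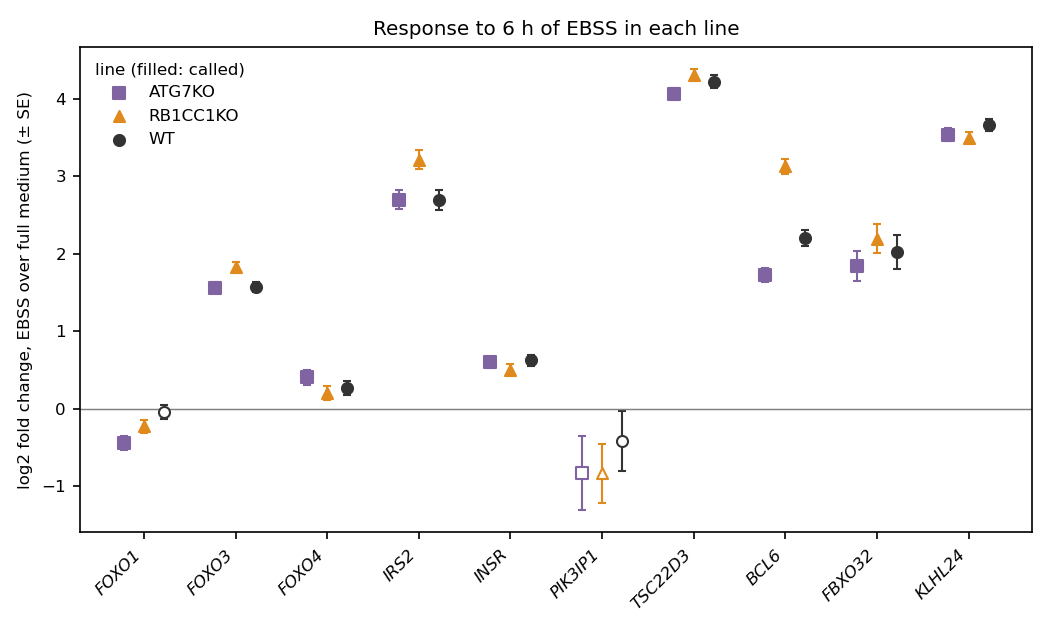
Log2 fold change, EBSS over full medium (± SE), of each gene in the 3 lines, with filled symbols for calls at an adjusted p below 0.05. The lines lie close together for most genes, and BCL6 is spread widest among the called genes, at 1.73 in ATG7KO, 3.13 in RB1CC1KO-labelled cells and 2.20 in WT.

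The start regions of these genes were searched for the forkhead core letters TGTTTAC and for TGTTTTG, which is part of published insulin response elements, on both strands of 300-base windows (250 before and 50 after each start, from RefSeq on GRCh38.p14). The 2 motifs share 5 letters at their start but are different words, and 94 of 35116 windows in the genome held both. Windows were at hand for 9 of the 10 genes, and 5 of their 17 windows (29.4%) held a match, against 8.07% of all windows. TGTTTAC was in 3.42% and TGTTTTG in 4.92% of all windows. TSC22D3, KLHL24 and IRS2, the 3 of these genes with the largest rises in WT, held a match before the start, and PIK3IP1, which was not called, and FOXO4 held TGTTTAC after it. FOXO3 (4 windows), BCL6 (2 windows) and INSR (1 window), all higher in every line, held neither motif, nor did FOXO1 (1 window). The bases before the start that lie outside annotated exons are shown for IRS2 (chr13:109786584-109786833, minus strand) and for 1 of the 4 TSC22D3 starts (chrX:107717136-107717312, minus strand), 5′ to 3′ along the gene with the motif in capitals. For KLHL24 only the 30 bases around the match are shown (chr3:183635580-183635609, plus strand), since the match lies in a first exon in the GENCODE 29 annotation.
IRS2: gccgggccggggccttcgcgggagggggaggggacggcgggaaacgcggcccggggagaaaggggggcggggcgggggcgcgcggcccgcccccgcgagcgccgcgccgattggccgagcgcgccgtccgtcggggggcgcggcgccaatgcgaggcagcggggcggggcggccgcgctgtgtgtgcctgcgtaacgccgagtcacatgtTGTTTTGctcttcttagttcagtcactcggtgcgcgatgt
TSC22D3: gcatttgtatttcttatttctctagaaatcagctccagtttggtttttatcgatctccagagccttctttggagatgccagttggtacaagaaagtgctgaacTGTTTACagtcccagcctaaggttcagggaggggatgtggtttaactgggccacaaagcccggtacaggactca
KLHL24: ctgacgctcagTGTTTTGgcccggacggtc
The match began 40 bases before the RefSeq start in IRS2, 147 in TSC22D3 and 32 in KLHL24, each on the gene's own strand. A match is a description of these letters and does not show that a factor binds there, and counts per gene do not separate the 4 starts of TSC22D3.

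The 3 FOXO factors moved apart. FOXO3 (chromosome 6, 108559835 to 108684774, plus strand, GRCh38), which encodes a factor linked to stress resistance and cell cycle arrest, rose in all lines. FOXO3 was at 97.5, 91.8 and 87.6 CPM after EBSS and at 30.3, 31.4 and 32.5 CPM in full medium in ATG7KO. RB1CC1KO-labelled cells had 146, 142 and 149 CPM after EBSS and 40.6, 43.4 and 38.8 CPM in full medium. WT cells had 105, 106 and 113 CPM after EBSS and 34.1, 36.7 and 38.0 CPM in full medium. Every starved library was above every fed library. In each medium the libraries of the 3 lines did not overlap, with RB1CC1KO-labelled highest and ATG7KO lowest. The log2 fold changes were 1.56 ± 0.07 in ATG7KO (adjusted p = 3.19e-20), 1.83 ± 0.07 in RB1CC1KO-labelled cells (adjusted p = 6e-23) and 1.57 ± 0.07 in WT (adjusted p = 1.38e-20). Of all tested genes, 4.91% rose as much or more in ATG7KO, 3.92% in RB1CC1KO-labelled cells and 4.85% in WT. FOXO3 has a near-identical pseudogene copy, FOXO3B, which was counted separately with 1211 reads over all libraries, so the split of reads between the 2 copies is uncertain.

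FOXO1 (chromosome 13, 40469953 to 40666597, minus strand), best known for insulin-dependent control of glucose and lipid metabolism in liver, did not follow FOXO3. In ATG7KO it was at 33.9, 31.2 and 28.01 CPM after EBSS and at 42.4, 41.8 and 43.9 CPM in full medium. In RB1CC1KO-labelled cells it was at 37.4, 44.4 and 42.5 CPM after EBSS and at 49.95, 52.0 and 43.0 CPM in full medium. Libraries of the 2 media did not overlap in ATG7KO, where FOXO1 fell (log2 fold change -0.44 ± 0.09, adjusted p = 7.23e-05), and overlapped in RB1CC1KO-labelled cells, where the fall was smaller (-0.22 ± 0.08, adjusted p = 0.0201). The call in RB1CC1KO-labelled cells was lost without full-medium replicate 1 (-0.20, adjusted p = 0.067), without full-medium replicate 2 (-0.16, adjusted p = 0.148) and without EBSS replicate 1 (-0.15, adjusted p = 0.17). WT FOXO1 stood at 40.6, 40.3 and 44.9 CPM after EBSS and at 41.7, 40.8 and 47.0 CPM in full medium, with overlapping libraries and no call (-0.04 ± 0.09, adjusted p = 0.704). With upper-quartile scaling FOXO1 was called lower in WT (-0.19, adjusted p = 0.0476). The difference of the FOXO1 response between ATG7KO and WT was -0.40 ± 0.12 and did not pass the threshold (adjusted p = 0.11).

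FOXO4 (chromosome X, 71096197 to 71103535, plus strand), the smallest of the 3 genes, rose little. It was at 20.7, 21.3 and 25.3 CPM after EBSS and at 17.6, 15.2 and 16.7 CPM in full medium in ATG7KO (log2 fold change 0.41 ± 0.10, adjusted p = 0.000498). The values in RB1CC1KO-labelled cells were 24.1, 25.7 and 28.1 CPM after EBSS and 22, 21.3 and 24.2 CPM in full medium (0.20 ± 0.09, adjusted p = 0.0437). WT had 25.0, 25.5 and 25.6 CPM after EBSS and 21.7, 21.2 and 20.3 CPM in full medium (0.27 ± 0.09, adjusted p = 0.0117). The media overlapped by 1 library in RB1CC1KO-labelled cells and did not overlap in the other lines. With upper-quartile scaling the rise was no longer called in RB1CC1KO-labelled cells (0.06, adjusted p = 0.559) or in WT (0.11, adjusted p = 0.283). FOXO4 was also not called in RB1CC1KO-labelled cells when any of 4 of that line's 6 libraries was left out, the highest adjusted p being 0.196 without EBSS replicate 3, nor in WT without full-medium replicate 3 (0.22, adjusted p = 0.0669).

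To compare the factors with one another, levels were divided by exon length (RPKM, CPM on the TMM scale per kilobase of exon). In full medium FOXO1 was the highest of the 3 in every line, at 6.85 ± 0.17 RPKM in ATG7KO, 7.76 ± 0.76 RPKM in RB1CC1KO-labelled cells and 6.93 ± 0.54 RPKM in WT (SD, n = 3), and FOXO3 the lowest. After EBSS FOXO3 was the highest in every line, at 11.96 ± 0.64, 18.9 ± 0.48 and 13.98 ± 0.56 RPKM in ATG7KO, RB1CC1KO-labelled cells and WT, and FOXO1 the lowest. FOXO3 thus made up 51.0 ± 1.8% of the summed RPKM of the 3 factors after EBSS and 25.9 ± 1.0% in full medium in ATG7KO. The share was 57.1 ± 1.9% after EBSS and 27.1 ± 0.73% in full medium in RB1CC1KO-labelled cells, and 49.8 ± 0.15% after EBSS and 26.5 ± 0.94% in full medium in WT. Every starved library was at 49.0% or more and every fed library at 27.9% or less. The summed level of the 3 factors was also higher after EBSS, at 23.4, 33.0 and 28.1 RPKM in ATG7KO, RB1CC1KO-labelled cells and WT, against 15.7, 19.6 and 17.7 RPKM in full medium. With the longest transcript in place of the exon union, the share was 50.8, 56.8 and 49.5% after EBSS and 25.6, 26.8 and 26.2% in full medium. These shares are given as a description, without a test.

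Of IRS2, INSR and PIK3IP1, the 3 of the 10 genes that act at the receptor and the kinase, IRS2 (chromosome 13, 109752698 to 109786568, minus strand), the adaptor that couples the receptor to phosphoinositide 3-kinase and a textbook FOXO target in liver, moved most. IRS2 was at 79.8, 82.4 and 98.2 CPM after EBSS and at 12.7, 13.2 and 13.6 CPM in full medium in ATG7KO. It was at 104, 77.9 and 113 CPM after EBSS and at 10.7, 10.47 and 10.4 CPM in full medium in RB1CC1KO-labelled cells, and at 76.0, 69.2 and 92.2 CPM after EBSS and at 12.2, 12.4 and 12.1 CPM in full medium in WT. The media were far apart in every line, and the starved libraries spread more widely than the fed ones. The log2 fold changes were 2.70 ± 0.13 (adjusted p = 2.38e-15), 3.22 ± 0.13 (adjusted p = 6.62e-17) and 2.69 ± 0.13 (adjusted p = 2.93e-15) in ATG7KO, RB1CC1KO-labelled cells and WT.

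INSR (chromosome 19, 7112255 to 7294034, minus strand), the insulin receptor itself, rose in all lines by less. It was at 100.1, 101 and 96.8 CPM after EBSS and at 63.4, 67.5 and 66.1 CPM in full medium in ATG7KO, at 90.6, 90.8 and 106 CPM after EBSS and at 68.5, 71.6 and 62.0 CPM in full medium in RB1CC1KO-labelled cells, and at 92.4, 98.5 and 101 CPM after EBSS and at 60.3, 62.1 and 66.7 CPM in full medium in WT. No starved library overlapped a fed one, and the lines overlapped one another in both media. The log2 fold changes were 0.60 ± 0.07 (adjusted p = 3.73e-09), 0.51 ± 0.07 (adjusted p = 6.26e-08) and 0.63 ± 0.07 (adjusted p = 1.07e-09) in ATG7KO, RB1CC1KO-labelled cells and WT. PIK3IP1 (chromosome 22, 31281593 to 31292534, minus strand), whose product binds and inhibits the catalytic subunit of the kinase, had only 3 to 23 reads per library. It was at 0.39, 0.34 and 0.64 CPM after EBSS and at 0.83, 0.65 and 0.69 CPM in full medium in ATG7KO, and its log2 fold change of -0.83 ± 0.48 was not called (adjusted p = 0.133). The changes of -0.83 ± 0.38 in RB1CC1KO-labelled cells (adjusted p = 0.0525) and -0.41 ± 0.38 in WT (adjusted p = 0.351) were not called either. The libraries of the 2 media overlapped in those lines and not in ATG7KO. In RB1CC1KO-labelled cells a fall of PIK3IP1 was called without full-medium replicate 2 (-1.0, adjusted p = 0.0373), without EBSS replicate 3 (-1.17, adjusted p = 0.0172) and, with all libraries, under upper-quartile scaling (-0.97, adjusted p = 0.0228). PIK3IP1 overlaps the antisense gene PIK3IP1-AS1, and the strand setting of the counting is not given in the sources used here, so its reads are uncertain in origin. TSC22D3, BCL6, FOXO1 and FOXO3 also overlap annotated genes or pseudogenes on the opposite strand, NCBP2L, AC072022.1, RLIMP1 and SUMO2P8 in that order.

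The genes reported to be driven by FOXO included the largest changes. TSC22D3 (chromosome X, 107713221 to 107777342, minus strand) encodes the leucine zipper protein GILZ, known as a gene induced by glucocorticoids and by FOXO3. It was at 412, 425 and 469 CPM after EBSS and at 27.0, 28.3 and 22.4 CPM in full medium in ATG7KO. RB1CC1KO-labelled cells had 518, 464 and 488 CPM after EBSS and 23.0, 25.5 and 25.9 CPM in full medium, and WT had 461, 450.2 and 482 CPM after EBSS and 26.6, 24.4 and 23.8 CPM in full medium. The fold change, EBSS over full medium, was 16.7 in ATG7KO, 19.8 in RB1CC1KO-labelled cells and 18.7 in WT, with log2 values of 4.07 ± 0.08 (adjusted p = 7.07e-31), 4.30 ± 0.08 (adjusted p = 1.25e-31) and 4.22 ± 0.08 (adjusted p = 5.04e-31). No more than 0.738% of tested genes rose as much or more in any line. NR3C1, the glucocorticoid receptor gene, named here after its values were seen, was under the filter on low counts, with 4, 4 and 2 reads per group of 3 libraries after EBSS and 29, 15 and 10 reads in full medium in ATG7KO, RB1CC1KO-labelled cells and WT.

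KLHL24 (chromosome 3, 183635568 to 183684477, plus strand), a substrate adaptor of a cullin ubiquitin ligase, was at 304, 265 and 298 CPM after EBSS and at 25.2, 25.7 and 23.6 CPM in full medium in ATG7KO. It was at 315, 317 and 284 CPM after EBSS and at 25.5, 31.5 and 24.5 CPM in full medium in RB1CC1KO-labelled cells, and at 317, 303 and 299 CPM after EBSS and at 23.5, 23.9 and 25.4 CPM in full medium in WT. The lines overlapped in both media, and the fold changes were 11.6, 11.2 and 12.6 in ATG7KO, RB1CC1KO-labelled cells and WT, with log2 values of 3.54 ± 0.08 (adjusted p = 5.23e-29), 3.49 ± 0.08 (adjusted p = 4.18e-29) and 3.66 ± 0.08 (adjusted p = 2.83e-29). FBXO32 (chromosome 8, 123497889 to 123541206, minus strand) encodes atrogin-1, the F-box protein through which FOXO factors raise protein breakdown in wasting muscle, and was low in HAP1. It was at 6.72, 7.13 and 7.21 CPM after EBSS and at 1.67, 2.00 and 2.18 CPM in full medium in ATG7KO, at 6.995, 8.85 and 8.65 CPM after EBSS and at 1.77, 1.35 and 2.25 CPM in full medium in RB1CC1KO-labelled cells, and at 5.25, 4.57 and 5.32 CPM after EBSS and at 1.24, 1.04 and 1.496 CPM in full medium in WT. All starved libraries were above all fed libraries, with log2 fold changes of 1.84 ± 0.19 (adjusted p = 3.42e-10), 2.20 ± 0.19 (adjusted p = 1.11e-12) and 2.03 ± 0.22 (adjusted p = 4.34e-10) in ATG7KO, RB1CC1KO-labelled cells and WT.

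BCL6 (chromosome 3, 187721377 to 187745727, minus strand), a zinc finger repressor best known in germinal centre B cells, was the gene on which the lines differed most. It was at 45.7, 45.2 and 45.2 CPM after EBSS and at 12.5, 13.95 and 14.8 CPM in full medium in ATG7KO. RB1CC1KO-labelled cells had 45.3, 51.2 and 51.7 CPM after EBSS and 5.48, 5.69 and 5.77 CPM in full medium. WT had 28.7, 29.7 and 33.6 CPM after EBSS and 6.87, 6.10 and 7.24 CPM in full medium. Both knockout-labelled lines were above WT after EBSS, whereas in full medium only ATG7KO was above WT. The log2 fold changes, EBSS over full medium, were 1.73 ± 0.09 in ATG7KO (adjusted p = 8.19e-18), 3.13 ± 0.10 in RB1CC1KO-labelled cells (adjusted p = 2.81e-24) and 2.20 ± 0.10 in WT (adjusted p = 2.08e-19).

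The difference of the EBSS response between lines was tested as an interaction term, and both differences share the WT libraries. Between RB1CC1KO-labelled cells and WT 1 of the 10 genes was called, against 8.16% of all tested genes, and it was BCL6, whose rise was larger in RB1CC1KO-labelled cells by 0.93 ± 0.15 on the log2 scale (adjusted p = 8.45e-05). IRS2 rose by 0.52 ± 0.18 more in RB1CC1KO-labelled cells than in WT without passing the threshold (adjusted p = 0.0793). Its difference was called without WT EBSS replicate 3 (0.65, adjusted p = 0.00943) and without RB1CC1KO EBSS replicate 2 (0.67, adjusted p = 0.00182). It was also called without ATG7KO EBSS replicate 1 (0.56, adjusted p = 0.0474). That library is outside the comparison and enters through the filter, the scaling and the spread, which all libraries share. DESeq2 also called the IRS2 difference (0.54, adjusted p = 0.031). FOXO3 differed by 0.26 ± 0.09 (adjusted p = 0.0864) and was called without RB1CC1KO full-medium replicate 2 (0.33, adjusted p = 0.0488) and without ATG7KO EBSS replicate 1 (0.29, adjusted p = 0.0455). Between ATG7KO and WT edgeR's quasi-likelihood test called 0 of the 10 genes and DESeq2 0, against 1.05% of all tested genes, and 2 of the 10 had an unadjusted p below 0.05. These were BCL6, with a response smaller in ATG7KO by -0.47 ± 0.14 (adjusted p = 0.0944), and FOXO1, whose difference was called only without ATG7KO EBSS replicate 1 among the alternatives run (-0.50, adjusted p = 0.0465).

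Within a medium, how many of the 10 genes differed depended on the lines compared. The share called was below that of all tested genes only between RB1CC1KO-labelled cells and WT in full medium. Such shares are descriptions only, since the 10 genes were chosen with earlier results of these data known. The comparisons of either knockout-labelled line with WT share the WT libraries. The marker sums given above also differed between ATG7KO and WT. Between RB1CC1KO-labelled cells and WT, the epithelial sums differed in both media and the fibroblast and mesenchymal sums in full medium. The part of these sums in the differences between lines was not tested. After EBSS, ATG7KO differed from WT at 3 genes, against 13.2% of all tested genes. FOXO1 was lower in ATG7KO (log2 fold change -0.41 ± 0.09, adjusted p = 0.00133), as was FOXO3 (-0.22 ± 0.06, adjusted p = 0.0187), and BCL6 was higher (0.56 ± 0.09, adjusted p = 8e-06). The FOXO3 call was lost without ATG7KO EBSS replicate 3, the shallow library (-0.19, adjusted p = 0.0867), without ATG7KO EBSS replicate 2 (-0.23, adjusted p = 0.0587) and without WT EBSS replicate 3 (-0.19, adjusted p = 0.0857). Without the shallow library the EBSS response in ATG7KO kept its count of 9 genes called, with FOXO1 at -0.39, FOXO3 at 1.59, IRS2 at 2.62, TSC22D3 at 4.01, BCL6 at 1.73 and KLHL24 at 3.52 on the log2 scale. In full medium ATG7KO differed from WT at 2 genes, against 10.5% of all tested genes, with BCL6 higher (1.04 ± 0.11, adjusted p = 5.01e-09) and FOXO4 lower (-0.35 ± 0.09, adjusted p = 0.01). FOXO4 was not called without ATG7KO full-medium replicate 2 (-0.30, adjusted p = 0.0884). FOXO3 was not called in full medium (-0.21 ± 0.07, adjusted p = 0.0552) except without WT full-medium replicate 1 (-0.25, adjusted p = 0.0434).

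RB1CC1KO-labelled cells differed from WT at 4 genes after EBSS, against 31.6% of all tested genes. FOXO3 (log2 fold change 0.43 ± 0.06, adjusted p = 1.14e-06), BCL6 (0.69 ± 0.08, adjusted p = 4.85e-08), FBXO32 (0.70 ± 0.16, adjusted p = 0.000932) and IRS2 (0.31 ± 0.11, adjusted p = 0.0291) were all higher. The IRS2 libraries overlapped, and its call was lost without WT EBSS replicate 1 (0.29, adjusted p = 0.0614), WT EBSS replicate 2 (0.22, adjusted p = 0.148), RB1CC1KO EBSS replicate 1 (0.28, adjusted p = 0.0711) or RB1CC1KO EBSS replicate 3 (0.20, adjusted p = 0.18). In full medium edgeR's quasi-likelihood test called 0 of the 10 genes between these lines and DESeq2 0, against 17.2% of all tested genes, and 2 had an unadjusted p below 0.05, FOXO3 (0.18 ± 0.07, adjusted p = 0.0797) and FBXO32 (0.53 ± 0.25, adjusted p = 0.153). IRS2 and BCL6 had log2 differences of -0.22 ± 0.15 (adjusted p = 0.352) and -0.24 ± 0.13 (adjusted p = 0.196) in full medium, which did not pass the threshold.

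Set directly against ATG7KO, RB1CC1KO-labelled cells differed at 3 genes in each medium, against 29.3% of all tested genes after EBSS and 21.4% in full medium. After EBSS they had more FOXO3 (log2 fold change 0.65 ± 0.06, adjusted p = 3.9e-10), FOXO1 (0.40 ± 0.09, adjusted p = 0.000795) and TSC22D3 (0.17 ± 0.07, adjusted p = 0.0435). The TSC22D3 call was lost when any of 5 libraries was left out, with adjusted p-values of 0.0536 without ATG7KO full-medium replicate 1, 0.0636 without ATG7KO EBSS replicate 1, 0.059 without ATG7KO EBSS replicate 2, 0.0819 without RB1CC1KO EBSS replicate 1 and 0.07 without RB1CC1KO EBSS replicate 3. It was also lost under upper-quartile scaling (0.16, adjusted p = 0.0649) and in the fit of the compared groups alone (0.16, adjusted p = 0.0683). FOXO4 was just short of a call (0.24 ± 0.09, adjusted p = 0.0504) and was called by DESeq2 (0.26, adjusted p = 0.0371) and without any of 6 libraries, among them the shallow one (0.30, adjusted p = 0.0219). Without RB1CC1KO EBSS replicate 2 a higher IRS2 was also called (0.35, adjusted p = 0.0034). In full medium they had more FOXO3 (0.38 ± 0.07, adjusted p = 6.17e-05) and FOXO4 (0.45 ± 0.09, adjusted p = 0.000369) and less BCL6 (-1.28 ± 0.11, adjusted p = 1.89e-11). Their lower IRS2 (-0.32 ± 0.14, adjusted p = 0.117) was called in full medium without RB1CC1KO EBSS replicate 2 (-0.33, adjusted p = 0.0271), with no filter on low counts (-0.33, adjusted p = 0.0182) and in the fit of the compared groups alone (-0.35, adjusted p = 0.0193).

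**Figure D3:**
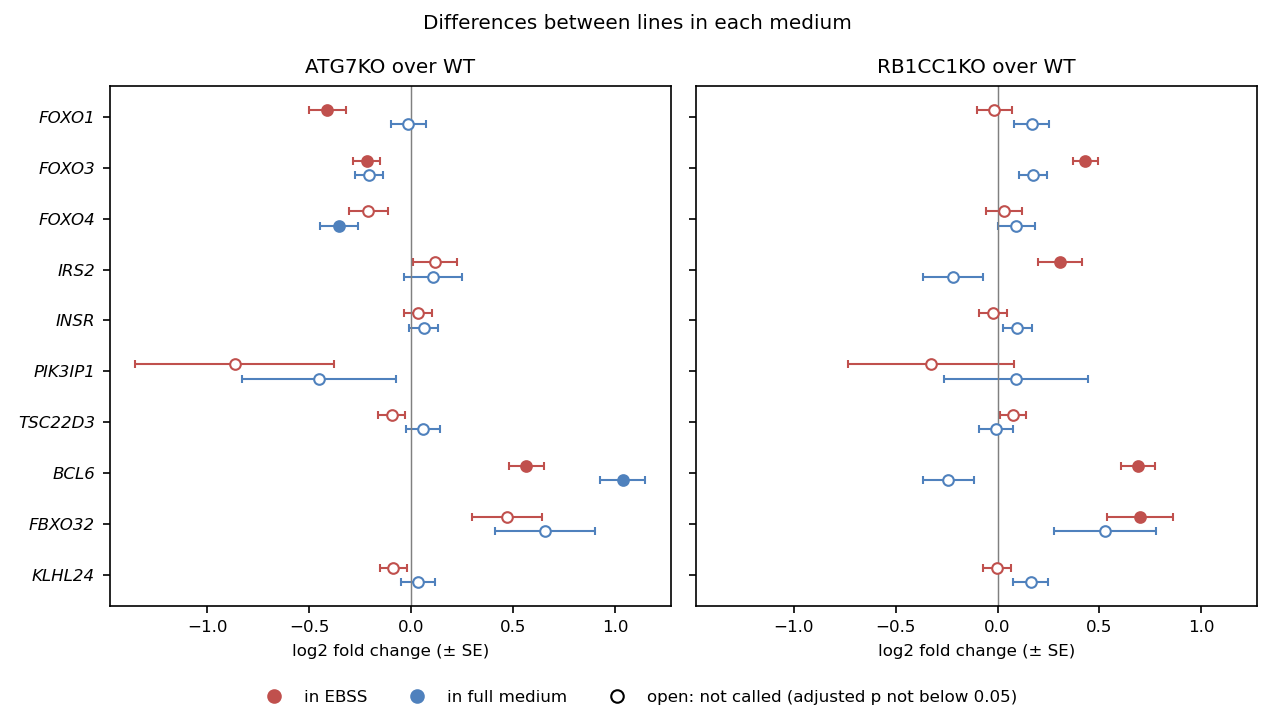
Log2 fold change (± SE) of each gene in ATG7KO over WT (left) and RB1CC1KO-labelled cells over WT (right), after EBSS (red) and in full medium (blue), with filled points for calls at an adjusted p below 0.05. BCL6 is above 0 in ATG7KO in both media (0.56 after EBSS, 1.04 in full medium), and in RB1CC1KO-labelled cells it is above 0 after EBSS (0.69) and at -0.24, not called, in full medium.

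The wider pathway was described with 5 lists, also chosen with earlier results of these data known. The genes upstream of AKT moved in both directions. Of 13 tested of 14 receptor and adaptor genes other than INSR and IRS2, 7 rose and 2 fell after EBSS in ATG7KO, 6 rose and 3 fell in RB1CC1KO-labelled cells and 7 rose and 2 fell in WT. Their median log2 fold changes were 0.23, 0.32 and 0.16 in ATG7KO, RB1CC1KO-labelled cells and WT. The share called was 69.2% in each line, near the 62.9, 65.1 and 64.5% of all tested genes. Those that rose made up 53.8, 46.2 and 53.8%, against 32.3, 31.9 and 32.4% of all tested genes. GRB10, an adaptor that dampens the insulin receptor, averaged 268, 257 and 244 CPM after EBSS in ATG7KO, RB1CC1KO-labelled cells and WT, against 112, 110.1 and 102 CPM in full medium, with log2 fold changes of 1.26, 1.22 and 1.26. IGF2R, the receptor that clears IGF2, rose by 1.32, 1.37 and 1.34 and the docking protein GAB1 by 0.90, 0.54 and 0.76, whereas the cytokine signalling suppressor SOCS2 changed by -0.51, -0.52 and -0.52 on the same scale and in the same order of lines. All of these passed the threshold in each line.

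Of 27 tested of 30 genes between the kinase and AKT, 14 rose and 3 fell in ATG7KO, 12 rose and 3 fell in RB1CC1KO-labelled cells and 14 rose and 6 fell in WT, with medians of 0.33, 0.19 and 0.19. The share called was 63.0, 55.6 and 74.1%, against 62.9, 65.1 and 64.5% of all tested genes. Those that rose made up 51.9, 44.4 and 51.9%, against 32.3, 31.9 and 32.4% of all tested genes. TRIB3, a pseudokinase that binds AKT and is known as a target of the amino acid response, averaged 498, 348 and 459 CPM after EBSS in ATG7KO, RB1CC1KO-labelled cells and WT, against 32.3, 34.6 and 37.4 CPM in full medium. Its log2 fold changes were 3.94 ± 0.08, 3.33 ± 0.08 and 3.62 ± 0.08. PIK3CA, the catalytic subunit of the kinase, rose by 1.46, 1.60 and 1.63. RICTOR, a subunit of the complex that phosphorylates AKT and a reported FOXO target, rose by 1.35, 1.54 and 1.29.

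Among 33 FOXO partners and modifying enzymes, all tested, 15 rose and 11 fell in ATG7KO, 15 rose and 8 fell in RB1CC1KO-labelled cells and 15 rose and 8 fell in WT, with medians of 0.08, 0.05 and 0.06. The share called was 78.8, 69.7 and 69.7%, and the share that rose was 45.5% in each line, against 32.3, 31.9 and 32.4% of all tested genes. SIRT1, a deacetylase of FOXO proteins, averaged 221, 308 and 248.7 CPM after EBSS in ATG7KO, RB1CC1KO-labelled cells and WT, against 55.0, 71.1 and 64.1 CPM in full medium, with log2 fold changes of 2.01, 2.11 and 1.96. The acetyltransferase CREBBP rose by 1.66, 1.69 and 1.19, and its response was larger than in WT by 0.47 ± 0.10 in ATG7KO (adjusted p = 0.00877) and by 0.50 ± 0.10 in RB1CC1KO-labelled cells (adjusted p = 0.000779). The kinase DYRK1A rose by 0.64, 0.77 and 0.96 and the forkhead repressor FOXK2 by 0.88, 0.96 and 0.85.

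Of 37 tested of 45 other reported FOXO targets, 26 rose and 7 fell in ATG7KO, 29 rose and 4 fell in RB1CC1KO-labelled cells and 25 rose and 6 fell in WT, with medians of 0.56, 0.59 and 0.58. The share that rose was 70.3, 78.4 and 67.6%, against 32.3, 31.9 and 32.4% of all tested genes. KLF6, a zinc finger factor, averaged 421, 573 and 421 CPM after EBSS in ATG7KO, RB1CC1KO-labelled cells and WT, against 55.0, 57.4 and 59.0 CPM in full medium. Its response was larger in RB1CC1KO-labelled cells than in WT by 0.49 ± 0.08 (adjusted p = 0.000213). Cyclin G2 (CCNG2), a cyclin that slows the cell cycle, rose by 2.56, 2.50 and 2.81, the HMG-box repressor HBP1 by 2.72, 2.50 and 2.41, and the autophagosome protein gene MAP1LC3B by 1.20, 1.40 and 1.31. Members of the list that fell in every line were CCND1, at -2.17, -2.03 and -2.00, ERBB3, at -0.57, -0.96 and -0.55, SESN1, at -0.77, -0.61 and -0.88, and RBL2, at -0.25, -0.47 and -0.22, all named for that direction after their values were seen. FOXO factors are reported to repress CCND1, which drives entry into the cell cycle. CCND2, another cyclin gene on the list, rose by 0.90, 0.95 and 1.04, also named after its values were seen. Whether FOXO factors act on either gene here was not tested.

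Because TSC22D3 is also a glucocorticoid target, 14 genes of that response were followed, of which 12 were tested. In each line 8 rose and 3 fell, with medians of 0.59, 0.58 and 0.90 in ATG7KO, RB1CC1KO-labelled cells and WT. The share called was 91.7% in each line, against 62.9, 65.1 and 64.5% of all tested genes. Those that rose made up 66.7% in each line, against 32.3, 31.9 and 32.4% of all tested genes. DUSP1, a phosphatase of MAP kinases, rose by 1.82, 2.05 and 1.76, the clock gene PER1 by 1.83, 2.10 and 1.71, the EGFR inhibitor ERRFI1 by 1.35, 1.94 and 1.77 and the thiamine transporter SLC19A2 by 1.13, 0.83 and 1.21. The 3 that fell were FKBP5, at -0.24, -0.20 and -0.33, MT2A, at -0.66, -0.60 and -0.56, and TFCP2L1, at -0.62, -0.66 and -0.72, named for that direction after their values were seen. TAT, a liver enzyme gene, is the point farthest to the right in the plot of the lists. It had 13, 24 and 11 reads in the RB1CC1KO-labelled EBSS libraries and 0 in that line in full medium. In ATG7KO, where its rise was also called, it had 4, 1 and 0 reads after EBSS and 0 in full medium. Its fitted fold change is no measure of size in either line. TAT is nevertheless counted among the 8 that rose, and in the shares above, in ATG7KO and RB1CC1KO-labelled cells. In WT it was not called. Only the RB1CC1KO-labelled EBSS libraries held enough reads to carry it past the filter on low counts. PIK3CA, RICTOR and TRIB1 are in both the kinase list and the FOXO target list, and SGK1 is in both the kinase list and the glucocorticoid list.

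**Figure D4:**
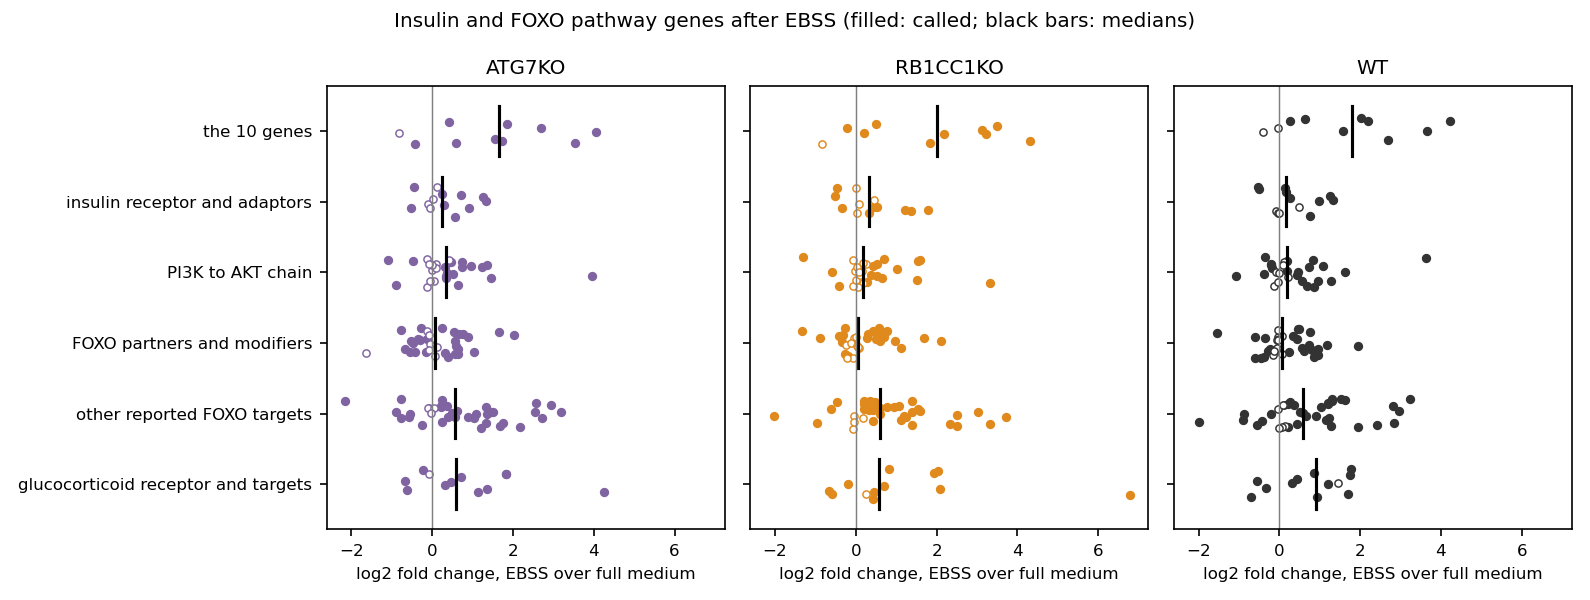
Log2 fold change, EBSS over full medium, of the tested genes of each list in the 3 lines, with filled points for calls at an adjusted p below 0.05 and black bars for medians. The medians of the 10 genes (1.64, 2.01 and 1.80) lie to the right of those of the other FOXO targets (0.56, 0.59 and 0.58), and the partners and modifiers lie around 0.

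Ordered by level per length, TSC22D3 led the 10 genes after EBSS at 91.4 ± 6.3 RPKM in ATG7KO, 103 ± 5.7 RPKM in RB1CC1KO-labelled cells and 97.5 ± 3.4 RPKM in WT (SD, n = 3), followed by KLHL24 at 33.4 ± 2.4, 35.3 ± 2.1 and 35.4 ± 1.1 RPKM and by FOXO3. In full medium FOXO1 led in every line, and TSC22D3 was at 5.43 ± 0.65, 5.20 ± 0.33 and 5.23 ± 0.31 RPKM. The place of TSC22D3 in full medium depended on the length used, since with the longest transcript it led at 11.4, 10.9 and 10.99 RPKM. PIK3IP1 and FBXO32 were the lowest pair in every group, between 0.12 and 1.10 RPKM. BCL6 was at 7.64 ± 0.05 and 8.32 ± 0.60 RPKM after EBSS in ATG7KO and RB1CC1KO-labelled cells and at 5.17 ± 0.44 RPKM in WT.

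Over the 18 libraries, the 2 protein-coding genes most like each of the 10 were sought among 11463 genes by Pearson's r of log2 CPM. KLHL24 was most like SLC38A2 (r = 0.999) and ASNS (0.998), TSC22D3 most like IFRD1 (0.999) and CTDSP2 (0.998), IRS2 most like DDIT4 (0.996) and SESN2 (0.996) and FOXO3 most like JAG1 (0.997) and ZBTB10 (0.996). INSR was most like MAP3K14 (0.98) and PIKFYVE (0.979), FBXO32 most like RAE1 (0.978) and FER (0.977) and BCL6 most like PHLPP1 (0.974) and ARID5B (0.973). The genes with small or uncertain responses had weaker partners, namely PAK3 (0.921) and RARRES3 (0.916) for FOXO4, PRDM2 (0.906) and PCDHAC2 (0.898) for FOXO1 and ZFP28 (0.845) and DUSP22 (0.824) for PIK3IP1. Among the 10 genes, FOXO3 correlated with FOXO1 at -0.38 and with FOXO4 at 0.75. All of these libraries share the contrast of 2 media, which alone gives high values to genes that respond to it, so the correlations are descriptions only.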

How the data were processed

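RNA-seq libraries of 18 HAP1 samples were analysed from deposited raw counts of reads per gene, which the authors made from 75 bp single-end reads of directional poly(A) libraries, per the labels. HTSeq 0.6.1p1, STAR 2.4.2a, Picard, DESeq2, edgeR and the build GRCh37/hg19 are listed without role or order, per the submitters' processing notes. For the counting, neither strand setting nor annotation release is given in the sources used here. The tables list 63677 Ensembl identifiers, without symbols. Symbols, positions and exon lengths were taken from GENCODE 29 on GRCh38, by identifier. Start regions came from RefSeq on GRCh38.p14. Summary lines of the counter that name no gene were left out.

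Genes were kept by filterByExpr, leaving 15179. Counts were scaled by TMM and fitted over all 18 libraries with 1 mean per group by edgeR 4.0.16 (quasi-likelihood F test, limma 3.58.1, R 4.3.3), with Benjamini-Hochberg adjustment over all tested genes and calls below 0.05. Standard errors were the log2 fold change divided by the square root of F. DESeq2 1.42.0 was an alternative, beside other scaling (upper-quartile, size factors), no filter on low counts, fits of the compared groups alone, replicate blocks and leaving out each library. Error after ± is the SE for fold changes and the SD of 3 libraries for levels. The SE includes the spread between libraries as estimated in the fit. The fit and test were tried on simulated counts for the comparison of EBSS with full medium in WT only. Reads in genes per library were 4892072 to 26005942. Replicates differed by more than counting noise, with a chi-square per degree of freedom of 2.33 to 11.2.

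The 10 genes and all lists were chosen with earlier results of these data known. Of each list, up to 4 genes with the smallest p for EBSS against full medium in WT are named, with other names marked; 1 of these genes is not reported here. Samples were grouped by the labelled line and medium. Replicate numbers were not treated as pairs of the media. Within lines, correlations of same-numbered libraries ran from -0.131 (WT replicate 3) to 0.544 (RB1CC1KO replicate 2). Those of differently numbered libraries ran from -0.409 to 0.431. Whether some numbers share a batch was not tested.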

Additional observations from a re-analysis of the deposited data

Results flagged for a closer look

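The rise of BCL6 after EBSS differed between RB1CC1KO-labelled cells and WT in the test of the interaction term, by 0.93 ± 0.15 on the log2 scale (adjusted p = 8.45e-05, edgeR's quasi-likelihood test). By the same test BCL6 was higher in RB1CC1KO-labelled cells than in WT after EBSS (0.69 ± 0.08, adjusted p = 4.85e-08). In full medium the difference of -0.24 ± 0.13 was not called (adjusted p = 0.196). The groups held 3 libraries each, too few to look for single libraries that stand apart.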

How the results depend on the processing

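No value of the 10 genes reversed its sign past the threshold under any alternative, and of 708 such values outside the left-out libraries 688 kept their side of the threshold, 13 gained a call and 7 lost one. The calls of BCL6, and the EBSS calls of FOXO3, IRS2, INSR, TSC22D3, FBXO32 and KLHL24, changed under no alternative run. The replicate block, by replicate number, called 293 genes (305 within lines) for the difference of the EBSS response between ATG7KO and WT. Without the block 160 were called, and no filter on low counts called 281. Between RB1CC1KO-labelled cells and WT, that block (2 either way), no filter (2) and DESeq2 (2) each called IRS2 beside BCL6, where 1 gene was called without them. With the block IRS2 differed by 0.53 (adjusted p = 0.00901), IRS2 was called lower in RB1CC1KO-labelled cells than in ATG7KO in full medium (-0.33, adjusted p = 0.0272), and FBXO32 was also called higher in ATG7KO than in WT after EBSS (0.50, adjusted p = 0.045), as was FOXO4 in RB1CC1KO-labelled cells over ATG7KO after EBSS (0.24, adjusted p = 0.0481). Leaving out 1 library at a time gave 71 to 275 genes for the response difference between ATG7KO and WT. It was 71 without ATG7KO EBSS replicate 2, 73 and 94 without WT EBSS replicates 1 and 2, 92 without either ATG7KO full-medium replicate 1 or 2, 102 and 101 without WT full-medium replicates 1 and 3, 274 without ATG7KO EBSS replicate 1 and 275 without WT EBSS replicate 3. The response difference between RB1CC1KO-labelled cells and WT had 788 to 1588 genes (1238 with all libraries), with 788 without WT EBSS replicate 1 and 824 without RB1CC1KO full-medium replicate 2. Between ATG7KO and WT after EBSS there were 1235, without ATG7KO EBSS replicate 2, to 2081 (2010 with all). Of the 10 genes, it gave 0 to 1 and 1 to 3 for these response differences and 1 to 3 between ATG7KO and WT in full medium. Fits of the compared groups alone lost the calls of FOXO4 in RB1CC1KO-labelled cells (0.20, adjusted p = 0.0748) and of IRS2 between those cells and WT after EBSS (0.30, adjusted p = 0.198). The causes were not tested. With 3 to 23 reads per library, PIK3IP1 could show only large changes at this depth.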
